A study of Mus musculus with 6 samples.

Results

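The cytosolic double-stranded RNA sensing genes described here are Ddx58, Ifih1, Dhx58, Mavs, Zbp1, Eif2ak2, Adar, Ddx60 and Dhx9. They were chosen by name, as the RNA sensors, adaptor and effectors outside the OAS family, and all 9 were found among the 54532 genes of the count files. All 9 also passed the filter on low counts that left 12894 genes to test. RNA was sequenced from cDC1s, the conventional dendritic cells specialised in cross-presentation, grown from mouse bone marrow with FLT3L at 80 ng/mL for 8 days and sorted as CD24+ CD11c+ cells without B220, CD115 or CD172a. The 3 control libraries, labelled WT, carried floxed alleles (c-Jun/JunB fl/fl, here controls 1 to 3). The 3 others, labelled KO, carried the same floxed alleles with Itgax-Cre, which is driven by the CD11c promoter and deletes in CD11c-expressing cells (c-Jun/JunB Δ/Δ Itgax-Cre, here Δ/Δ 1 to 3). The mice were on a mixed 129 Sv and C57BL/6 background. The study's material counts the samples of each genotype as mice, without the animal, culture or preparation behind each library, and p-values measure the spread between these 6 libraries. Reads assigned to genes numbered 25860931, 26788296 and 23666519 in controls 1 to 3 and 24429016, 21693217 and 22874838 in Δ/Δ 1 to 3. The question was which of these genes differed in level between cDC1s of these genotypes.

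RIG-I (Ddx58) and MDA5 (Ifih1) bind viral or endogenous double-stranded RNA in the cytosol and signal through the mitochondrial adaptor MAVS to the kinases that switch on interferon genes, while LGP2 (Dhx58) modulates both. PKR (Eif2ak2) halts translation and ZBP1 starts cell death when they bind such RNA, and ADAR1 (Adar) edits the cell's own duplexes so that they are not sensed. Most of these genes are induced by interferon, and cDC1s are known for responding to double-stranded RNA, which they also sense in endosomes through TLR3.

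The targeted genes were looked at first. Jun stood at 70.9, 52.5 and 63.1 CPM (normalised read count, scaled by TMM) in controls 1 to 3 and at 48.2, 44.3 and 60.5 CPM in Δ/Δ 1 to 3. The ranges overlapped, with Δ/Δ 3 above control 2, and the log2 fold change of −0.29 ± 0.15 (SE, Δ/Δ minus control) did not pass the test (adjusted p = 0.345, edgeR quasi-likelihood test, Benjamini-Hochberg adjusted across the genes tested, as for every adjusted p here unless another tool is named). Junb stood at 314.5, 273.9 and 413 CPM in controls 1 to 3 and at 110.4, 171.1 and 211.6 CPM in Δ/Δ 1 to 3. All 3 Δ/Δ libraries lay below all 3 control libraries, with a log2 fold change of −1.02 ± 0.25 and an adjusted p of 0.0729. Junb passed with the DESeq2 Wald test (adjusted p = 0.000119), with no filter on low counts (0.0161), with replicate number fitted as a block (0.0370) and without Δ/Δ 1 (0.0359, at a log2 fold change of −0.80), but in no other alternative, and Jun passed in none. Transcript of both genes was thus present in every Δ/Δ library, and Δ/Δ names the labelled genotype here, not an absence of these transcripts. Reads were counted over the whole gene, so these values do not separate recombined from intact alleles. The study reports the deletion by quantitative RT-PCR in cDC1s sorted from spleen and lymph nodes. Those are other cells and another measure than the counts here.

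Promoter windows of 300 bases (250 before to 50 after the start, RefSeq, GRCm38.p6) were found for 7 of the 9 genes, and not for Dhx58 and Zbp1. They are shown because several of these genes moved together. The letters GAAANNGAAA, the core of the interferon-stimulated response element, were searched on both strands, a motif chosen after the sequences had been read. The core occurred in the windows of 4 of the 7 genes (Ddx58, Ifih1, Eif2ak2 and Ddx60) and in 3.44% of all 32851 promoter windows of this length. Each core is in capitals in the stretches below, written 5′ to 3′ on the gene's strand, and the windows of Mavs and Dhx9, which hold none, are given for comparison. The windows of Adar, not printed, hold no full core either, and its level was lower in every Δ/Δ library than in every control. Whether a core goes with a lower level was not tested. The stretches run from base −70 to base 30 of the start, except that of Ifih1, which runs from base 21 to base 50.
Ddx58, chr4:40239796-40239895, minus strand: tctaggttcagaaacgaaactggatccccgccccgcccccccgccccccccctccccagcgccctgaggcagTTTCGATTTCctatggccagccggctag
Ifih1, chr2:62646206-62646235, minus strand: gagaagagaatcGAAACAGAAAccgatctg
Eif2ak2, chr17:78882543-78882642, minus strand: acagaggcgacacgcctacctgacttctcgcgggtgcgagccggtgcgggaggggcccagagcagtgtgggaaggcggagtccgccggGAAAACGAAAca
Ddx60, chr8:61928017-61928116, plus strand: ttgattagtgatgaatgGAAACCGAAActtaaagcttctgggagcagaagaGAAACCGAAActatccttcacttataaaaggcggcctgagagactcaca
Mavs, chr2:131233993-131234092, plus strand: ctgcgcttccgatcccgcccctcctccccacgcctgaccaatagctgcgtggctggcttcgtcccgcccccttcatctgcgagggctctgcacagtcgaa
Dhx9, chr1:153487631-153487730, minus strand: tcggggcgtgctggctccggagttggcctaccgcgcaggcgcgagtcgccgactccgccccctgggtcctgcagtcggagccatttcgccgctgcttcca

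Ddx60 held 2 cores, both upstream of the start, at bases −53 to −44 and −19 to −10. The other 3 genes had theirs just after the start, at bases 3 to 12 in Ddx58 (on the opposite strand), 19 to 28 in Eif2ak2 and 33 to 42 in Ifih1. The shorter form GAAANNGAA, which every full core contains, occurred in 8.56% of all windows and in 5 of the 7 genes. The gene it added was Adar, whose 3 annotated starts have a window each and whose start 3 (chr3:89730468-89730767) held it at bases −249 to −241 and 34 to 42. That window is the 1 of 9 whose last bases were not found in a GENCODE transcript of its gene, and without it the shorter form occurred in the same 4 genes as the full core. The AP-1 letters TGANTCA, which overlap neither form, occurred in 7.81% of all windows and in 0 of these 7 genes, which says only that these letters are not in these windows. A match is a description of the letters and not a binding site.

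**Figure D1:**
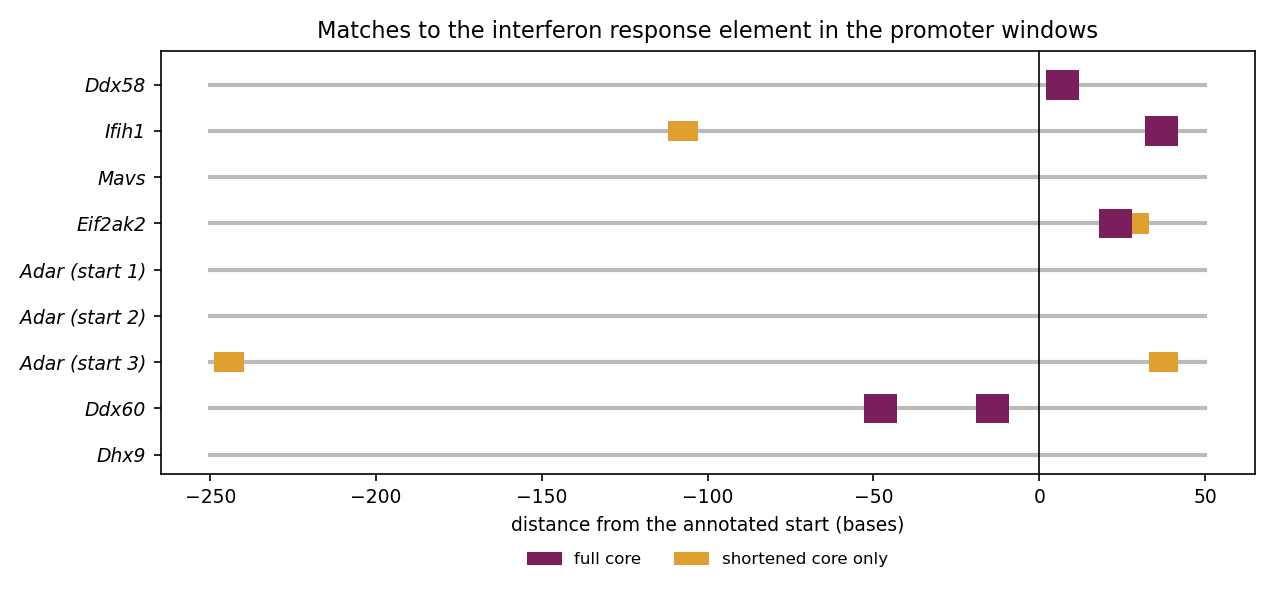
Matches to the interferon response element core (purple, GAAANNGAAA) and to its shortened form alone (orange, GAAANNGAA) along the 9 promoter windows of 7 genes, against distance in bases from the annotated start. Full cores lie in the windows of Ddx58, Ifih1, Eif2ak2 and Ddx60, and none lies in those of Mavs, Adar or Dhx9.

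Of the 9 sensing genes, 4 were lower in Δ/Δ cDC1s at an adjusted p under 0.05 (Ddx58, Dhx58, Zbp1 and Eif2ak2), where 1.85% of all genes tested were, and 0 of the 9 were higher, where 2.03% of all genes tested were. In both other tools 0 of the 9 were higher too, while 6 of 9 were lower with DESeq2 and 4 of 9 with limma-voom. For these tools the shares of all genes past the adjusted p were not taken. The shares of 1.85% and 2.03% are from edgeR and cannot be set beside their counts. Ddx58 and Zbp1 also changed by at least 1 on the log2 scale, the limit for a call, so 2 of 9 were called, against 0.869% of all genes tested that were called lower. In 7 of 9 every Δ/Δ library lay below every control library, which held for 12.3% of all genes tested. The median log2 fold change of the 9 was −0.67, against 0.0018 for all genes tested. These counts depended on single libraries, and so did the count of all genes called. That count was 240 with all libraries and 74, 80 and 154 without controls 1 to 3. Without Δ/Δ 1 to 3 it was 579, 370 and 192. The 4 genes past the adjusted p became 0 without control 1 and 0 without control 2 by the edgeR test, when 7 and 6 of the 9 had an unadjusted p under 0.05, and 2 without Δ/Δ 3 (Ifih1 and Dhx58). With all libraries 7 of the 9 had an unadjusted p under 0.05, as had 2496 of the 12894 genes tested. The share of all genes with such a p was not taken for the fits without a library. The 2 called genes became 0 without control 1, without control 2 and without Δ/Δ 3, 1 without control 3 (Zbp1) and 3 without Δ/Δ 1 (with Eif2ak2). No other tool was run without a library. In sorted bulk cells, fewer cells with a transcript and less of it per cell cannot be told apart.

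**Figure D2:**
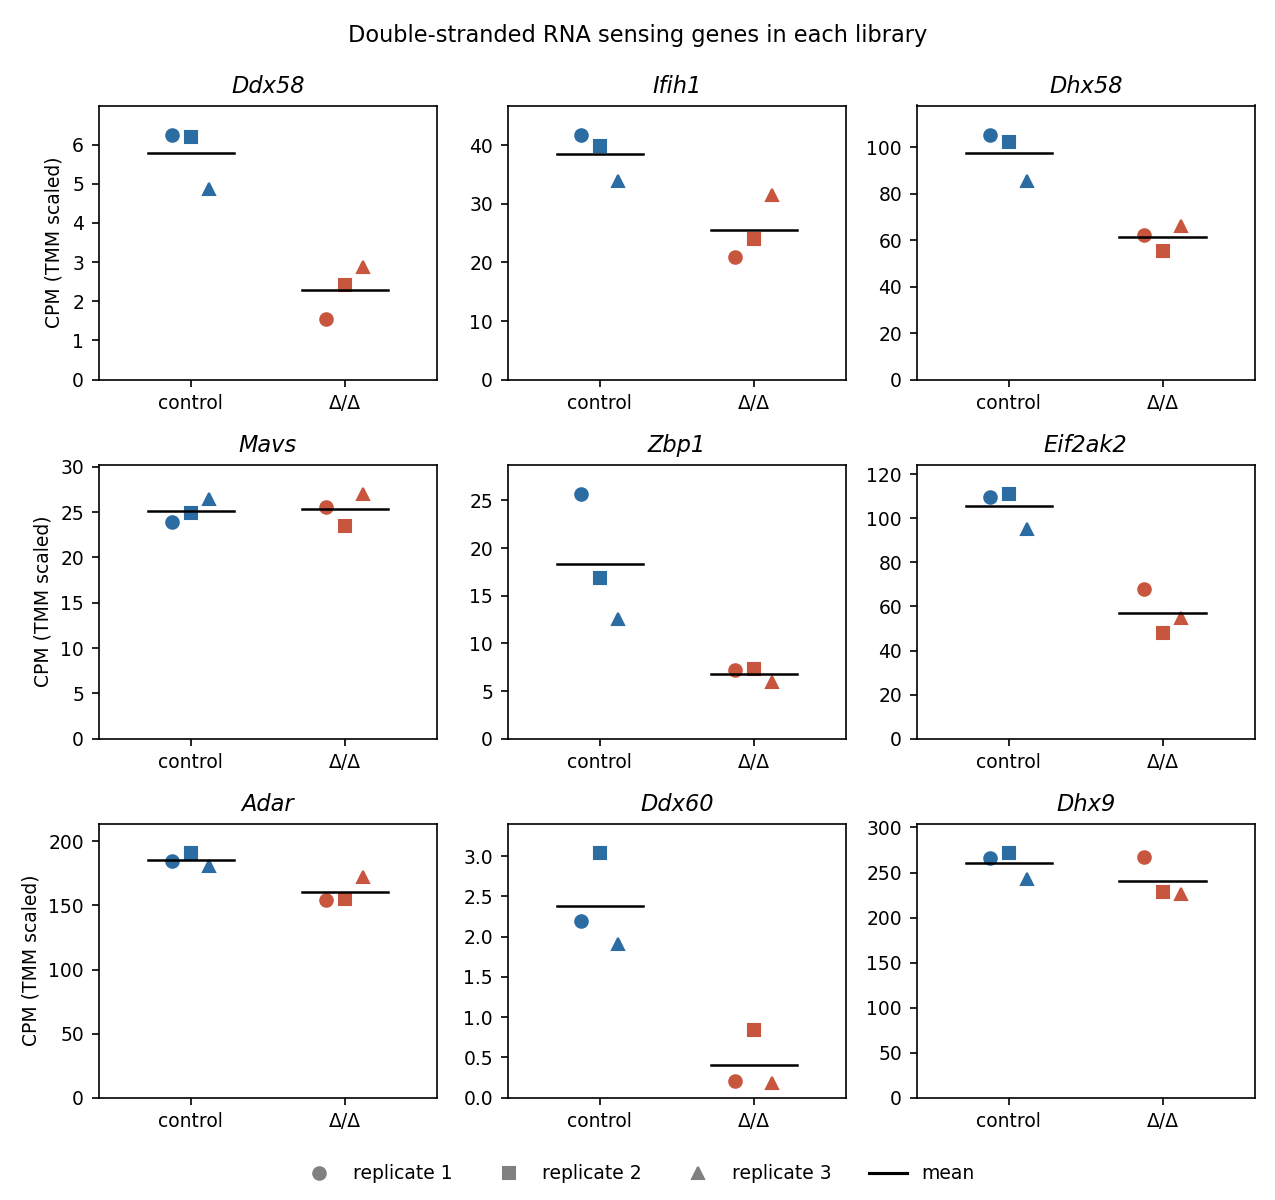
Level of each of the 9 genes in each library, in TMM-scaled CPM from 0 on the y axis, with controls in blue, Δ/Δ in red, a symbol per replicate and a line at the mean of 3. The genotypes are separate in 7 panels and overlap for Mavs and Dhx9.

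Among the RIG-I-like receptors, Ddx58 (chr4:40203773-40239828, GRCm38), which encodes RIG-I, had 162, 167 and 115 reads in controls 1 to 3 and 38, 52 and 65 in Δ/Δ 1 to 3, or 6.25, 6.19 and 4.88 CPM against 1.54, 2.43 and 2.86 CPM. All Δ/Δ libraries were below all control libraries, with control 3 the lowest control and Δ/Δ 1 the lowest library. The log2 fold change was −1.34 ± 0.27 with an adjusted p of 0.0414, lower in 3 of 3 Δ/Δ libraries. The adjusted p was 0.191 without control 1, 0.186 without control 2, 0.0938 without control 3, 0.0546 without Δ/Δ 2 and 0.0518 without Δ/Δ 3. It was 0.0799 in the fit with a replicate block, and ranged from 0.00101 to 0.191 over the alternatives, at log2 fold changes of −1.54 to −1.12. Its core, just after the start, is shown above.

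Ifih1 (chr2:62595798-62646255), which encodes MDA5, stood at 41.7, 39.8 and 33.8 CPM in controls 1 to 3 and at 20.9, 24.0 and 31.5 CPM in Δ/Δ 1 to 3. The genotypes did not overlap, although Δ/Δ 3 lay close under control 3. The log2 fold change of −0.59 ± 0.16 did not pass (adjusted p = 0.100). It passed without Δ/Δ 3, at −0.78 with an adjusted p of 0.0375, within a range of 0.0142 to 0.344 over the alternatives.

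Dhx58 (chr11:100694884-100704271), which encodes LGP2, a receptor of this family without the domains that signal, stood at 105.3, 102.4 and 85.3 CPM in controls 1 to 3 and at 62.3, 55.5 and 66.3 CPM in Δ/Δ 1 to 3. Again control 3 was the lowest control, and it lay above every Δ/Δ library. The gene fell by 0.67 ± 0.10 on the log2 scale (adjusted p = 0.0187), in 3 of 3 Δ/Δ libraries, which is under the limit for a call. Its adjusted p was 0.105 without control 1 and 0.105 without control 2, and ranged from 1.47e-06 to 0.105 over the alternatives.

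Mavs (chr2:131234063-131248025), the adaptor on which RIG-I and MDA5 converge, stood at 23.9, 24.9 and 26.5 CPM in controls 1 to 3 and at 25.5, 23.5 and 27.0 CPM in Δ/Δ 1 to 3. The libraries of both genotypes interleaved. The log2 fold change was 0.01 ± 0.09 (adjusted p = 0.953), and turned to −0.02 without control 1 and −0.03 without Δ/Δ 3.

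Ddx60 (chr8:61928087-62038244), a helicase reported to help RIG-I-like receptors, was the least abundant of the 9, with 57, 82 and 45 reads in controls 1 to 3 and 5, 18 and 4 reads in Δ/Δ 1 to 3. In CPM these were 2.20, 3.04 and 1.91 against 0.203, 0.840 and 0.176. The genotypes were separate, and Δ/Δ 2 was the highest of the Δ/Δ libraries. Although the log2 fold change of −2.56 ± 0.59 was the largest in size of the 9, the adjusted p was 0.0631. Without Δ/Δ 2 the log2 fold change was −3.62 and the adjusted p 0.00960, within 0.00260 to 0.242 over the alternatives. Its window holds the pair of upstream cores shown above.

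Dhx9 (chr1:153455758-153487660), a nuclear helicase that unwinds RNA duplexes and has also been described as a sensor, stood at 265.6, 271.8 and 243.1 CPM in controls 1 to 3 and at 267.5, 228 and 226.5 CPM in Δ/Δ 1 to 3. Δ/Δ 1 lay among the controls and the others below them, so the genotypes overlapped. The log2 fold change was −0.11 ± 0.08 (adjusted p = 0.507).

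Of the effectors, Zbp1 (chr2:173206612-173218923), the sensor of left-handed nucleic acid duplexes that starts necroptosis and apoptosis, stood at 25.7, 16.9 and 12.5 CPM in controls 1 to 3 and at 7.18, 7.33 and 5.90 CPM in Δ/Δ 1 to 3. The controls were spread widely, the Δ/Δ libraries closely, and all Δ/Δ libraries were lower than all controls. The log2 fold change was −1.43 ± 0.27 with an adjusted p of 0.0325, lower in 3 of 3 Δ/Δ libraries. The adjusted p was 0.0939 without control 1 (log2 fold change −1.11), 0.126 without control 2, 0.0931 without Δ/Δ 3 and 0.0579 with limma-voom, and ranged from 1.25e-05 to 0.126 over the alternatives.

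Eif2ak2 (chr17:78852564-78882573), which encodes the kinase PKR, stood at 109.9, 111.1 and 95.2 CPM in controls 1 to 3 and at 68.0, 48.0 and 54.9 CPM in Δ/Δ 1 to 3. The genotypes were separate, with Δ/Δ 1 the highest of the Δ/Δ libraries. The gene fell by 0.89 ± 0.13 on the log2 scale (adjusted p = 0.0168), in 3 of 3 Δ/Δ libraries. The adjusted p was 0.0953 without control 1, 0.0971 without control 2 and 0.0529 without Δ/Δ 3, while without Δ/Δ 1 the gene met both limits of a call, at −1.03 and 0.00318. Over the alternatives the adjusted p ranged from 3.26e-08 to 0.0971.

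Adar (chr3:89715022-89753446), which encodes the editing enzyme ADAR1, stood at 184.4, 191 and 180.9 CPM in controls 1 to 3 and at 154.5, 155.1 and 172.4 CPM in Δ/Δ 1 to 3. The genotypes were separate by a small margin, between control 3 and Δ/Δ 3. The log2 fold change of −0.21 ± 0.06 did not pass (adjusted p = 0.135, from 0.0774 to 0.386 over the alternatives). The counts cover the gene as a whole, so its transcripts from different starts, of which the interferon-induced form is one, were not resolved.

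**Figure D3:**
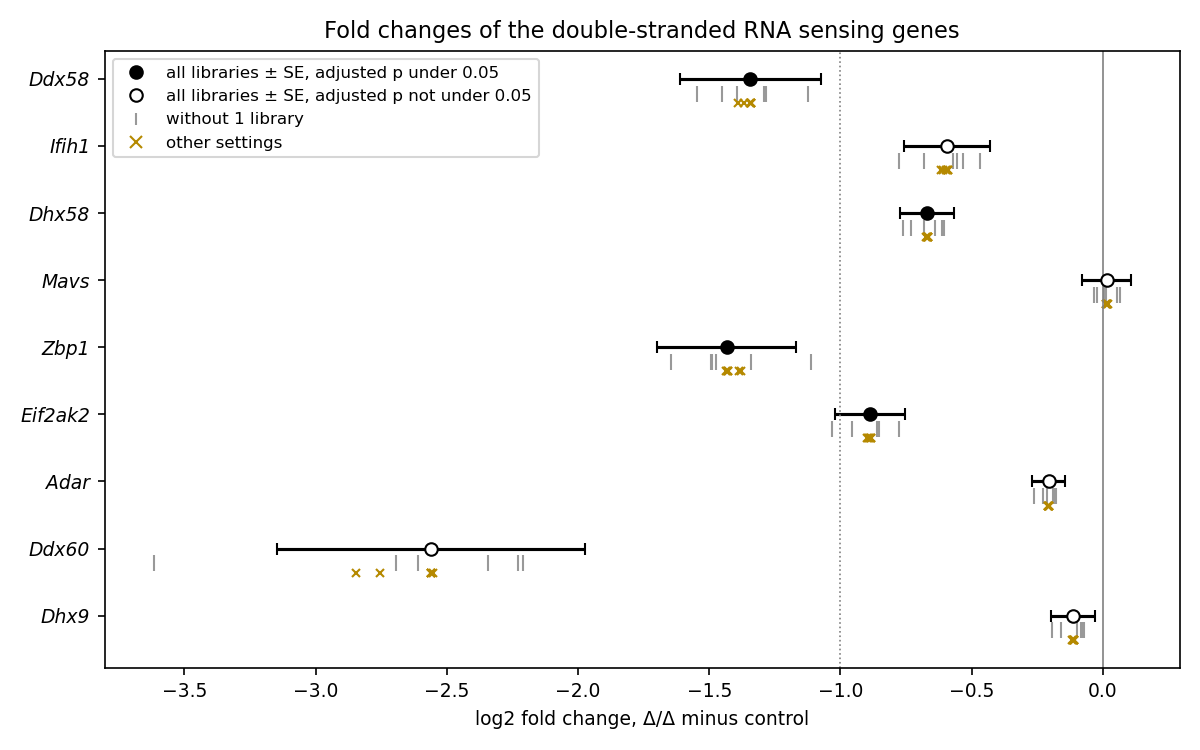
Log2 fold change (Δ/Δ minus control) of each gene on the x axis, with circles and bars for the value ± SE over 6 libraries, filled where the adjusted p was under 0.05, grey ticks for the fits without 1 library and crosses for the other settings. Ddx58, Zbp1 and Ddx60 lie beyond the dotted line at −1, and the values of Mavs fall on both sides of 0.

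Levels can be compared between these genes only per exon length. Per kilobase of annotated exon, the control means were 29.9 ± 3.31 (SD, n = 3, as for each mean here) CPM for Dhx58, 27.1 ± 1.58 for Dhx9, 22.8 ± 0.627 for Adar, 20.6 ± 1.73 for Eif2ak2 and 7.50 ± 0.391 for Mavs. Below them came Zbp1 at 5.21 ± 1.90, Ifih1 at 4.71 ± 0.506, Ddx58 at 0.819 ± 0.110 and Ddx60 at 0.274 ± 0.0677 CPM per kilobase, where the median of all genes tested was 5.84. The libraries of Dhx58 and Dhx9, of Mavs and Zbp1 and of Zbp1 and Ifih1 overlapped, and the other neighbours in this order did not. LGP2 transcript was thus among the most abundant of the set in control cDC1s, and RIG-I transcript stood below that of MDA5. In Δ/Δ cDC1s the order was Dhx9 at 25.1, Adar at 19.8, Dhx58 at 18.8, Eif2ak2 at 11.1, Mavs at 7.57, Ifih1 at 3.12, Zbp1 at 1.93, Ddx58 at 0.323 and Ddx60 at 0.0468 CPM per kilobase. There only the neighbours Adar and Dhx58 overlapped.

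**Figure D4:**
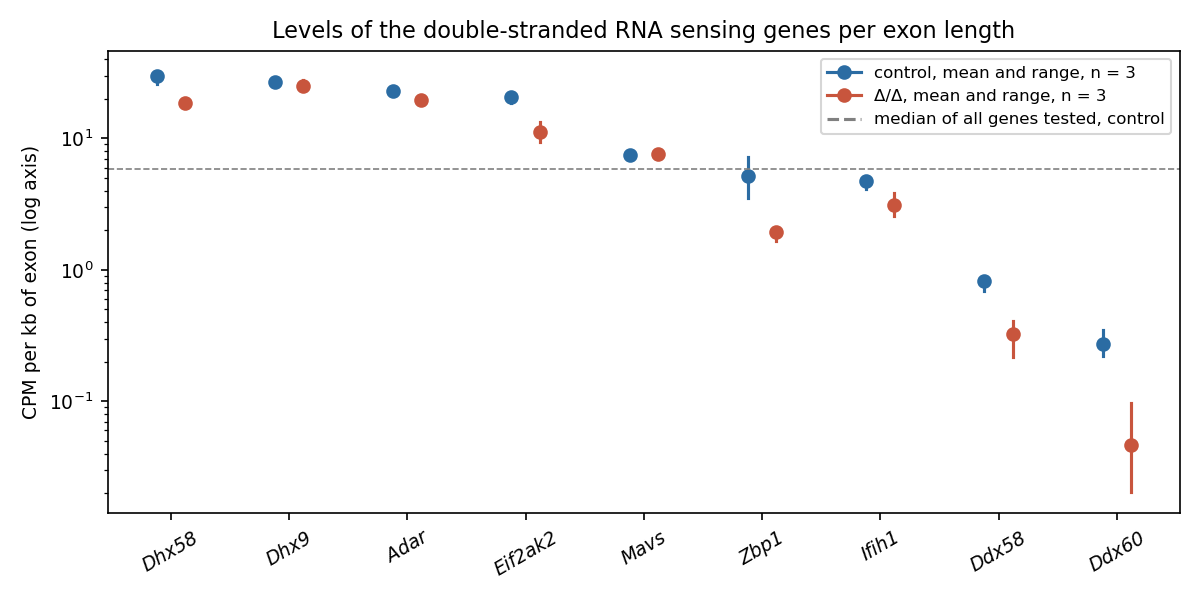
Mean (points) and range (lines) of each gene over 3 libraries, in CPM per kilobase of annotated exon on a log axis, for controls (blue) and Δ/Δ (red), with the control median of all genes tested as a dashed line at 5.84. In controls the means run from 0.274 for Ddx60 to 29.9 for Dhx58.

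The libraries of each genotype also differed among themselves. Of the 9 genes, 8 were at their lowest control level in control 3, the exception being Mavs, where 35.7% of all genes tested had their lowest control level in that library. No Δ/Δ library stood out in this way, since each held the lowest Δ/Δ level of 3 of the 9. Δ/Δ 3 held the highest Δ/Δ level of 5 of the 9, where 34.6% of all genes tested had theirs in that library. Over the genes tested, the Δ/Δ libraries lay further apart than the controls. The root mean square difference in log2 CPM of a library from the others of its genotype averaged 0.375 to 0.396 for controls. For Δ/Δ libraries it averaged 0.601 to 0.667.

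For each gene past the adjusted p, the 3 genes with the most similar profile over the 6 libraries were taken from 11599 others with a mean of at least 1 CPM, by the root mean square difference of log2 CPM centred on each gene's mean. They were Herc6 (0.130), Gm16464 (0.163) and Tespa1 (0.164) for Ddx58, and Irgm2 (0.0545), Rpap3 (0.0668) and Frmd4a (0.0784) for Dhx58. For Zbp1 they were Gm11131 (0.211), Stfa2 (0.214) and Cbx2 (0.233), and for Eif2ak2 Crim1 (0.0603), Fbxo44 (0.0945) and Hmox1 (0.0967). Herc6, nearest to Ddx58, averaged 12.5 CPM in controls and 5.57 CPM in Δ/Δ, a log2 fold change of −1.17 with an adjusted p of 0.0509.

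Around these sensors, 150 further genes of the pathway are reported, of which 125 were tested and 6 passed the test, 5 lower and 1 higher. Over all genes tested, 3.88% passed. The count of 6 became 1 without control 1, 1 without control 2, 2 without control 3 and 15 without Δ/Δ 1. Of 28 regulators of RIG-I-like receptors, 27 were tested, with a median log2 fold change of −0.04. Cyld passed, an enzyme that takes ubiquitin chains off RIG-I, at 188.6, 191.8 and 190.6 CPM in controls 1 to 3 and 144, 159.7 and 137.2 CPM in Δ/Δ 1 to 3 (log2 fold change −0.37 ± 0.07, adjusted p = 0.0315). The most abundant per kilobase in controls was Ywhae (150.8 ± 8.22 CPM per kilobase), an adaptor of the 14-3-3 group, at a log2 fold change of −0.11 (adjusted p = 0.591).

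Of 33 genes through which MAVS signals, 32 were tested and the median was −0.03. Irf7, the transcription factor that amplifies type I interferon induction, passed and was called, at 112.7, 93.96 and 77.1 CPM in controls 1 to 3 and 24.6, 27.3 and 45.3 CPM in Δ/Δ 1 to 3. All Δ/Δ libraries lay below all controls, and the log2 fold change was −1.54 ± 0.25 (adjusted p = 0.0209). The most abundant gene, Pcbp1 (190.1 ± 8.62 CPM per kilobase in controls), had a log2 fold change of −0.01 (adjusted p = 0.950).

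The 10 genes of ZBP1-dependent cell death were all tested, with a median of 0.10. Trim34a, a TRIM protein of that pathway, passed and was called, with 45.2, 42.6 and 35.4 CPM in controls 1 to 3 and 13.7, 12.5 and 12.2 CPM in Δ/Δ 1 to 3. These groups were far apart, and the log2 fold change of −1.68 ± 0.12 (adjusted p = 0.00142) passed without any single library too, with adjusted p from 8.03e-28 to 0.0176 over the alternatives. The gene lies in a cluster of similar copies, so its uniquely mapped reads are uncertain. Mlkl, which carries out necroptosis, was at 1.89, 1.85 and 1.32 CPM in controls 1 to 3 and 1.22, 0.420 and 0.176 CPM in Δ/Δ 1 to 3, a log2 fold change of −1.46 ± 0.61 that did not pass (adjusted p = 0.250). Without Δ/Δ 1 it was −2.49 and passed (adjusted p = 0.0261). It is named after its values were seen. Gsdmd, the most abundant (43.9 ± 1.44 CPM per kilobase in controls), had a log2 fold change of 0.10 (adjusted p = 0.678).

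All 22 genes of the PKR and eIF2α stress pathway were tested, with a median of −0.04. Asns, the asparagine synthetase gene that ATF4 induces, was the 1 that passed and the 1 that was higher, at 4.01, 5.49 and 3.52 CPM in controls 1 to 3 and 10.4, 10.3 and 7.36 CPM in Δ/Δ 1 to 3 (log2 fold change 1.10 ± 0.23, adjusted p = 0.0480). Atf4 itself was the most abundant (64.3 ± 0.708 CPM per kilobase in controls), at −0.07 (adjusted p = 0.497).

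Of 35 other genes of double-stranded RNA binding, processing or editing, 32 were tested, with a median of −0.04, and 2 passed. Tlr3, the endosomal double-stranded RNA receptor, stood at 456, 469 and 482.5 CPM in controls 1 to 3 and at 300.2, 219.8 and 307.9 CPM in Δ/Δ 1 to 3, with no overlap (log2 fold change −0.77 ± 0.13, adjusted p = 0.0226). Sp110, a nuclear body protein not itself known as a sensor, stood at 178.6, 168.1 and 161.7 CPM against 123.7, 126.6 and 143.2 CPM (−0.37 ± 0.08, adjusted p = 0.0459). Ddx5, an RNA helicase, was the most abundant (214.7 ± 6.75 CPM per kilobase in controls), at 0.08 (adjusted p = 0.539).

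The ligands came last. None of the 20 type I and III interferon genes listed, Ifnb1 among them, had a read in any of the 6 libraries, so none was tested. A count of 0 over 76315746 pooled reads in controls allows up to 0.0393 CPM, and over 68997071 in Δ/Δ up to 0.0435 CPM, from 3 reads over the genotype and for counting error only. The Ifna genes are near-identical copies whose shared reads may have been lost to unique mapping. Of the 6 genes reported here of the interferon receptor, its kinases and the ISGF3 complex, all tested, the median was 0.04 and 0 passed by edgeR, DESeq2 or limma-voom, while 1 had an unadjusted p under 0.05 by edgeR. Stat2 and Irf9, subunits of ISGF3 and named after their values were seen, had log2 fold changes of −0.02 ± 0.11 (adjusted p = 0.939) and −0.21 ± 0.09 (adjusted p = 0.249). Ifnar2, a receptor chain and the most abundant of the list (58.8 ± 0.520 CPM per kilobase in controls), was at −0.07 (adjusted p = 0.765).

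Of these 6 genes past the test, all but Trim34a lost it without control 1 and without control 2. The adjusted p without control 1 and without control 2 was 0.151 and 0.159 for Cyld, 0.110 and 0.105 for Irf7, and 0.214 and 0.0940 for Asns. It was 0.215 and 0.186 for Sp110, and 0.108 and 0.107 for Tlr3. Without control 3 it was 0.117 for Cyld, 0.151 for Asns, 0.105 for Sp110 and 0.0885 for Tlr3. Without a Δ/Δ library it was over 0.05 for Cyld (0.0641 without Δ/Δ 3) and for Asns and Sp110 without Δ/Δ 2 (0.0740 and 0.0732). Irf7 passed in the other fits that left out a library. With replicate number fitted as a block, Cyld, Irf7 and Sp110 lost the adjusted p, while Asns, Tlr3 and Trim34a passed. Over the alternatives other than glmTreat the adjusted p ranged from 0.000656 to 0.159 for Cyld, 1.42e-09 to 0.110 for Irf7, 0.00114 to 0.214 for Asns, 0.00172 to 0.215 for Sp110 and 1.39e-07 to 0.108 for Tlr3.

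**Figure D5:**
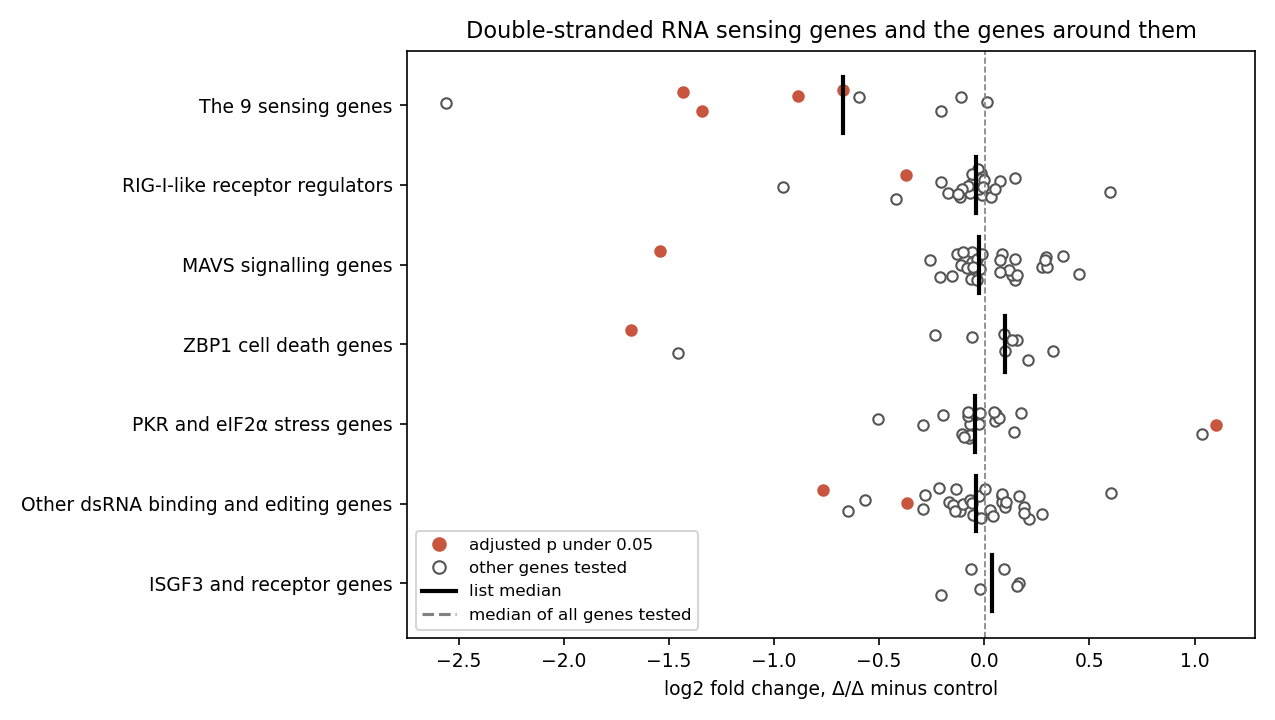
Log2 fold change (Δ/Δ minus control) of every tested gene of the 9 sensing genes and of 6 lists around them, red where the adjusted p was under 0.05, with a black bar at each list's median and a dashed line at the median of all genes tested (0.0018). The sensing genes have their median at −0.67 and the 6 lists have theirs between −0.04 and 0.10.

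Markers of dendritic cells and of other cells moved with genotype in the same libraries. Of 16 cDC1 markers, all tested, 10 had a negative log2 fold change, and the highest value was 1.10. Cadm1, named after its values were seen, was higher in every Δ/Δ library than in every control (0.32, adjusted p = 0.0615). By edgeR 5 of the 16 were lower (Xcr1, Tlr3, Snx22, Ppt1 and Itgax) and 0 higher, where 1.85% and 2.03% of all genes tested were. An unadjusted p under 0.05 was found for 8 of the 16 by edgeR, as for 2496 of the 12894 genes tested. Of these 16 markers, 1 was higher with DESeq2 and 0 with limma-voom, for which no share of all genes was taken. Their summed level was 14660, 14710 and 14450 CPM in controls 1 to 3 and 11660, 13940 and 12490 CPM in Δ/Δ 1 to 3, and Naaa, the most abundant in controls per kilobase of exon (the scale of that rank for each marker list here), stood at 2374, 2393 and 2181 CPM against 1672, 2298 and 1445 CPM. Xcr1, a defining receptor of cDC1s, had a log2 fold change of −1.42 ± 0.17 (adjusted p = 0.00812), and Clec9a, another, −0.13 ± 0.11 (adjusted p = 0.554). The other 3 that passed were Snx22 (−0.86), Ppt1 (−0.48) and Itgax (−1.22). No cDC1 marker was at 0, and the label cDC1 thus has its markers in all 6 libraries. Of 12 cDC2 markers, all tested, 3 had a negative log2 fold change, the lowest −0.99. By edgeR 3 of the 12 were higher (Cd209a, Klf4 and Cd4, at log2 fold changes of 2.25, 0.97 and 2.30) and 0 lower, with 0 lower by DESeq2 and limma-voom too. Their sum was 231.4, 255 and 382.7 CPM in controls 1 to 3 and 525.7, 621.6 and 765.5 CPM in Δ/Δ 1 to 3, and the most abundant per kilobase was Cd209a, at 39.1, 39.1 and 69.2 CPM against 196, 268 and 239 CPM.

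Of 12 pDC markers 10 were tested, and Ccr9 was higher (log2 fold change 1.41, adjusted p = 0.00333). Their sum was 288.4, 266.1 and 266.1 CPM in controls 1 to 3 and 282.4, 326.3 and 337.8 CPM in Δ/Δ 1 to 3, and Bst2, an interferon-induced gene, was the most abundant at 109.2, 102.4 and 89.1 CPM against 78.95, 70.6 and 77.6 CPM. Of 11 monocyte and macrophage markers 8 were tested, and Ccr2 (0.96) and Adgre1 (0.91) were higher on the log2 scale. Their sum was 2451, 2787 and 2872 CPM in controls 1 to 3 and 3818, 3467 and 4312 CPM in Δ/Δ 1 to 3, most of it Lyz2 (1760, 1939 and 1921 against 2378, 1895 and 2520 CPM). B cell markers summed to 30.9, 18.8 and 26.0 CPM in controls 1 to 3 and 12.8, 49.9 and 24.3 CPM in Δ/Δ 1 to 3 (most abundant Cd79b), and T and NK cell markers to at most 3.97 CPM in any library (most abundant Lck, with Prf1 at 0). Neutrophil markers summed to between 0.852 and 16.5 CPM (most abundant S100a9, with Ly6g and Elane at 0). Basophil and mast cell markers summed to 16.8 CPM in Δ/Δ 2 and at most 2.47 CPM elsewhere (most abundant in controls Gata2). In Δ/Δ 2 Prss34 (5.51 CPM) and Mcpt8 (4.81 CPM) were above Gata2 (2.66 CPM), and Prss34, Mcpt8 and Cpa3, none of them tested, were higher in every Δ/Δ library than in every control. In these 4 lists, with 5 of 6, 2 of 8, 3 of 7 and 1 of 6 genes tested, 0 passed by edgeR, DESeq2 or limma-voom and 0 had an unadjusted p under 0.05. Of the 11 marker genes that passed, Cd209a and Ccr9 did so without each single library. The other 9 lost the adjusted p without control 2 (from 0.0501 for Xcr1 to 0.173 for Cd4), and all of them but Ccr2 lost it without control 1 (from 0.0526 for Itgax to 0.158 for Klf4). Without control 3 it was 0.0505 for Itgax to 0.130 for Snx22, with Ppt1, Klf4, Adgre1 and Tlr3 between them, without Δ/Δ 2 it was 0.0602 for Snx22, and without Δ/Δ 3 it was 0.0502 for Klf4 to 0.0774 for Adgre1, with Ppt1 and Cd4 between them. Read quality moved with genotype as well. Unmapped reads made up 4.20%, 4.20% and 3.96% of reads in controls 1 to 3 and 3.34%, 3.44% and 3.26% in Δ/Δ 1 to 3, and reads outside genes 8.57%, 9.23% and 8.86% against 9.35%, 9.46% and 10.3%. The part of these markers and read shares in the lower levels of the sensing genes was not tested.

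Some reads could belong to overlapping genes, since the strand used in counting was not given in the sources used here. Adar shares 1365 exonic bases with Chrnb2 on the opposite strand, which had 37 to 77 reads per library, where Adar had 3325 to 5150. Eif2ak2 shares 174 exonic bases with the opposite-strand Gm26637, which had 55, 41 and 34 reads in controls 1 to 3 and 22, 4 and 18 in Δ/Δ 1 to 3, where Eif2ak2 had 1028 to 2995. Dhx58 shares 141 exonic bases with Dhx58os, which had at most 7 reads in a library.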

How the data were processed

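The authors sequenced poly(A) RNA with a directional kit, aligned reads with STAR 2.6.1a (2-pass mode) to GRCm38 with Gencode vM19, and deposited raw counts of uniquely mapped reads per gene, with the strand not given in the sources used here. Reads outside genes (unmapped, multimapping, no gene, ambiguous) were left out. Of 54532 genes, 54409 were given symbols through Ensembl identifiers without their version numbers, and 1 listed gene, Trim4, was not analysed here. Another listed gene is not reported here and was taken out of the list counts and medians after its values were seen. Groups follow the labels. Genes passing filterByExpr (minimum count 10, minimum total 15) were scaled by TMM and tested with edgeR 4.0.16 (glmQLFit and glmQLFTest, no covariate, R 4.3.3), with Benjamini-Hochberg adjustment over 12894 genes. Genes were called at an adjusted p below 0.05 if the log2 fold change was also 1 or more in size. The edgeR step was tested on simulated data first. The common biological coefficient of variation was 0.181. No 2 libraries of the same genotype agreed within sampling noise. The chi-square per degree of freedom was 6.35 to 10.42 between controls and 27.89 to 38.51 between Δ/Δ libraries.

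Exon lengths and coordinates came from GENCODE M21 (GRCm38), and promoter windows from RefSeq. The last bases of 8 of the 9 windows, all but Adar start 3, were found in a GENCODE transcript of the gene, in the same orientation. The alternatives were DESeq2 1.42.0 size factors, the DESeq2 Wald test, limma-voom (limma 3.58.1), no filter or a stricter filter on low counts (mean of at least 1 CPM), leaving out each library, the replicate number as a block, and glmTreat against a log2 fold change of 0.5. The genes named were the 9 sensing genes, Jun and Junb, list genes past the adjusted p and the most abundant of each list, and the 3 nearest in profile. The members and lists were chosen with earlier results of these data known.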

Additional observations from a re-analysis of the deposited data

How the results depend on the processing

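The number of sensing genes called was 2, and 0 with glmTreat by edgeR, when 5 of 9 had an unadjusted p under 0.05 in that test (DESeq2 called 3 and limma-voom 2). The share of all genes with such a p under glmTreat was not taken. Leaving out single libraries gave 0 to 3 called and 0 to 4 past the adjusted p alone, against 4 with all libraries. Genes called numbered 240, against 385 with the DESeq2 Wald test, 137 with glmTreat and 74 to 579 without a single library (74 and 80 without control 1 and 2, 154 without control 3, 579 and 370 without Δ/Δ 1 and 2). The 6 pathway genes past the adjusted p became 10 with DESeq2 and 1 to 15 without a single library. The cause of these shifts was not tested. Ddx60 passed with DESeq2, limma-voom, no filter and the block (adjusted p from 0.00260 to 0.0498 in these), and Ifih1 with DESeq2.

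Replicate numbers are shared between genotypes, but same-numbered libraries did not deviate together (correlations of 0.091, −0.148 and 0.20 for numbers 1 to 3), so they were not treated as paired. With the replicate block, 2 sensing genes were called (Zbp1 and Ddx60) and 4 passed the adjusted p. Ddx58 lost its call there, at an adjusted p of 0.0799. In that fit 207 genes were called, and 3 pathway genes passed (Asns, Tlr3 and Trim34a).

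Values of single sensing genes under the alternatives other than glmTreat numbered 108. Of these, 84 kept direction and side of the threshold, 15 lost the adjusted p, 7 gained it and 2 changed sign. Both sign changes were of Mavs (−0.0211 without control 1 and −0.0345 without Δ/Δ 3). Its lowest and highest values with 1 library left out were −0.0345 and 0.0654. The other 8 sensing genes stayed negative in all of them. Another scaling moved the median of all genes by under 0.1. Depth limits Ddx60, at 4 to 18 reads per Δ/Δ library, and the interferon genes.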
